A study of Drosophila melanogaster with 6 samples.

Results

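The Polycomb repressive complexes were examined through 10 core genes in RNA sequencing data from the central nervous system of Drosophila melanogaster larvae. The genes were chosen by name for their place in the complexes: Pc, ph-p, ph-d, Psc and Sce for PRC1, E(z), esc, Su(z)12 and Caf1-55 for PRC2, and pho for the DNA-binding subunit of PhoRC. They are 10 of 16959 genes, and 21 of 34115 RefSeq transcripts, in the authors' deposited table. The labels describe 3 knockdown samples, with the genotype dSET2 RNAi/+; elavC155GAL4, and 3 control samples, dSET2 RNAi/+; Canton S, in which the RNAi transgene is present without the driver. Each sample was RNA from 15 nervous systems of third-instar larvae (84 h AEL, reared at 25 °C). dSET2 is the gene Set2, a histone H3 lysine 36 methyltransferase, and the driver is used to direct expression to neurons. Whether Set2 was reduced, and in which cells of the tissue, is not shown by these values. The labels do not say how many independent crosses the samples came from.

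Polycomb proteins keep developmental genes, the Hox genes first among them, silent in cells where they should stay off. PRC2 methylates histone H3 on lysine 27 through its catalytic subunit E(z), and PRC1, whose chromodomain protein Pc reads that mark, compacts chromatin and ubiquitinates histone H2A through the RING protein Sce. Methylation of H3 lysine 36, the mark that Set2 places, is known to impede PRC2 on the same histone tail. In the larval brain, Polycomb genes are known for the survival of neural stem cells and for limiting Hox expression.

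The deposited values are the authors' own comparison between groups, and no values per sample were used. Base means in the authors' deposited table, which are read counts divided by size factors and averaged over libraries, resolved into whole reads of 4 libraries, here called A, B, C and D, against 6 labelled samples. The size factors of the libraries were 1.48 for A, 0.902 for C, 0.701 for D and 1.11 for B. Where a transcript had a single read, its edgeR fold change was above 0 if the read was in A, C or D, and below 0 if it was in B. In DESeq2 only the median of such transcripts was taken, and it had the same sign for each library. Values above 0 therefore mark transcripts higher on the side of A, C and D, and values below 0 those higher in B. Which side is the knockdown is not stated, and the libraries carry no labels, so each result below is given by side. With B alone on its side, the difference has no replicate check there. Library B also stood apart in high levels of salivary gland markers, whose values are given at the end.

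None of the 10 core genes differed between the sides past the threshold. At a false discovery rate under 0.05, 0 of 10 were called in edgeR (the authors' deposited table), against 0.868% of all transcripts and 3.59% of the 6596 genes whose base mean was 10 or more. At an unadjusted p-value under 0.05 the count was also 0 in edgeR (the authors' deposited table), against 9.17% of those 6596 genes, and DESeq2 called 0, against 2.26% of its 9221 transcripts with an adjusted p-value. A count of 0 among 10, or among the 8 whose base mean was 10 or more, is near these backgrounds. Each gene is given by its leading transcript, that of highest base mean, and 8 of the 10 reached a base mean of 10. The log2 fold changes of these 8 ran from -0.45 to 0.19 in edgeR (the authors' deposited table), with 4 positive and 4 negative and a median of -0.11, beside a median of 0.01 over all 6596 genes, 51.6% of them positive.

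**Figure D1:**
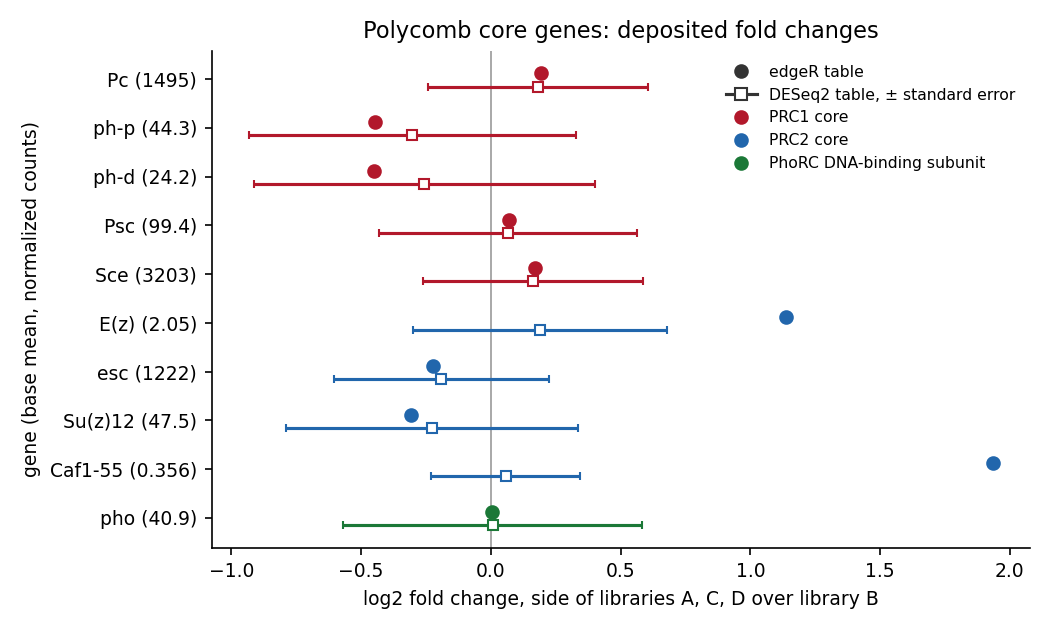
Log2 fold change (x axis, side of libraries A, C and D over library B) of the highest transcript of each Polycomb core gene, with its base mean in parentheses. Filled circles are edgeR values, and open squares are DESeq2 values with bars of 1 standard error; the bars of all 10 genes cross 0, and the circles of E(z) and Caf1-55, which rest on 7 reads and 1 read, lie far from their squares.

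How well each gene could be measured differed widely, with the single-transcript genes highest. The 3 genes with a single transcript, Sce, Pc and esc, had base means of 3203, 1495 and 1222 normalized counts in the authors' deposited table. The 7 genes with 2 or more transcripts had highest base means between 0.356 for Caf1-55 and 99.4 for Psc in the authors' deposited table. Across all genes in the authors' deposited table, 19.4% of 9611 genes with 1 transcript, and 1.61% of 7348 genes with 2 or more, reached a base mean of 1000. A base mean of 10 was reached by 44.0% of genes with 1 transcript, 25.2% with 2, 33.2% with 3, 42.0% with 4 and 48.1% with 5 or more in the authors' deposited table, so lower levels did not follow the number of transcripts.

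The exons were next compared among the transcripts of each gene in the Ensembl annotation of BDGP6.54, a later build than the dm3 named in the submitters' processing notes. Caf1-55, the histone-binding subunit p55 that PRC2 shares with other chromatin complexes, has 1828 exonic bases, of which 99.8% lie in both transcripts. A run of 3 coding bases belongs to 1 transcript alone. E(z), the methyltransferase itself, has 186 bases of its own in the 5′ UTR of 1 transcript and 15 coding bases in another. Psc, a RING-domain partner of Sce, has 325 such bases, all in the 3′ UTR of its longest transcript. Su(z)12, a zinc-finger subunit that PRC2 needs for activity, has 162, of which 152 are coding. The zinc-finger protein pho, which binds Polycomb response elements, has 222, all in the 5′ UTR. The tandem X-linked paralogs ph-p and ph-d encode the SAM-domain polyhomeotic subunits of PRC1. The most that 1 transcript holds alone is 714 bases for ph-p and 305 for ph-d, in both cases in the 5′ UTR.

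In all 7 genes with 2 or more transcripts, the number of transcripts without a base of their own equalled the number listed at 0 in the authors' deposited table. The transcripts listed at 0 were 2 of 3 for Psc, 1 of 4 for ph-p, 1 of 3 for E(z), 1 of 2 each for Su(z)12, pho and Caf1-55, and 0 of 2 for ph-d. Over the whole authors' deposited table the numbers were equal in 1858 of 2303 such genes whose base mean was 10 or more. In 1785 of 1785 of them that have a transcript without a base of its own, at least as many transcripts were listed at 0. The comparison is of numbers per gene, not of transcripts paired one to one. Whether the values of these 7 genes come only from such short stretches of their exons was not tested, and a transcript listed at 0 is not shown to be absent. Levels were compared per length only for the other 3, which have 1 transcript each. Per 1000 bases of transcript, the base mean in the authors' deposited table was 2077 normalized counts for Sce, 717 for esc, which encodes the WD40 subunit of PRC2, and 607 for Pc. No spread over samples stands behind this order, so whether esc and Pc differ is not known.

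**Figure D2:**
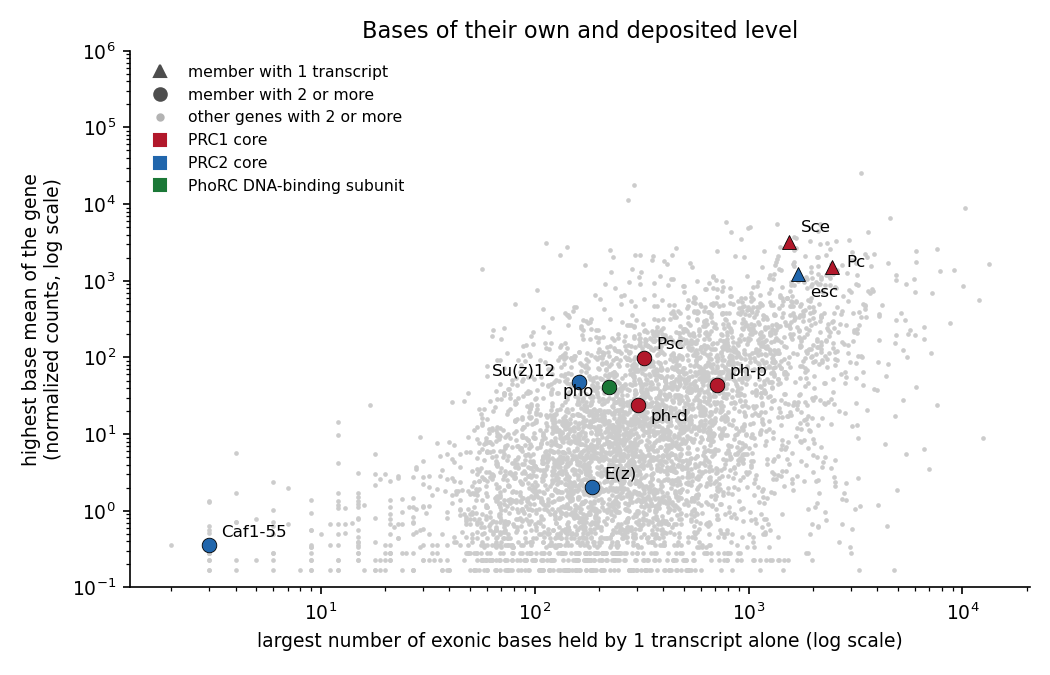
Largest number of exonic bases that 1 transcript of a gene holds alone (x axis, log scale) against the highest base mean of the gene (y axis, normalized counts, log scale). Triangles are Polycomb core genes with 1 transcript and circles those with 2 or more; Caf1-55, with 3 bases and a base mean of 0.356, and Sce, with 1542 bases and 3203, mark the ends, and grey points are other genes with 2 or more transcripts.

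The catalytic and reader subunits of PRC1, Sce and Pc, had the highest base means of the core genes. For Sce, the base mean and the fold change in the authors' deposited table imply 3294 normalized counts for the mean of A, C and D and 2929 for B. For Pc they imply 1543 for the mean of A, C and D and 1350 for B. This was checked on 1526 transcripts with recovered reads, base means from 20 to 100 and log2 fold changes under 1 in size. Levels implied in this way were off there by a median of 0.201% for the mean of A, C and D and 0.623% for B. The error at the higher levels of Sce and Pc was not tested. EdgeR (the authors' deposited table) gave log2 fold changes of 0.17 for Sce (unadjusted p = 0.658, false discovery rate 1) and 0.19 for Pc (unadjusted p = 0.648, false discovery rate 1). DESeq2 (the authors' deposited table) gave 0.16 ± 0.426 (standard error) for Sce and 0.18 ± 0.422 for Pc. The corresponding 95% Wald intervals ran from 0.628-fold to 1.995-fold for Sce and from 0.639-fold to 2.01-fold for Pc. Both intervals include equal levels on the 2 sides.

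For esc, which stands for PRC2 at a comparable level, the authors' deposited table implies 1172 normalized counts for the mean of A, C and D and 1369 for B. Its log2 fold change was -0.22 in edgeR (the authors' deposited table) (unadjusted p = 0.596, false discovery rate 1), with a DESeq2 interval from 0.499-fold to 1.54-fold. Across edgeR (the authors' deposited table), 0.975% of 1539 transcripts with a base mean from 1000 to 4000 were called, and the smallest called change among them was 1.92 log2 units. The changes of Sce, Pc and esc were near the median size at that level, 0.18 log2 units.

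**Figure D3:**
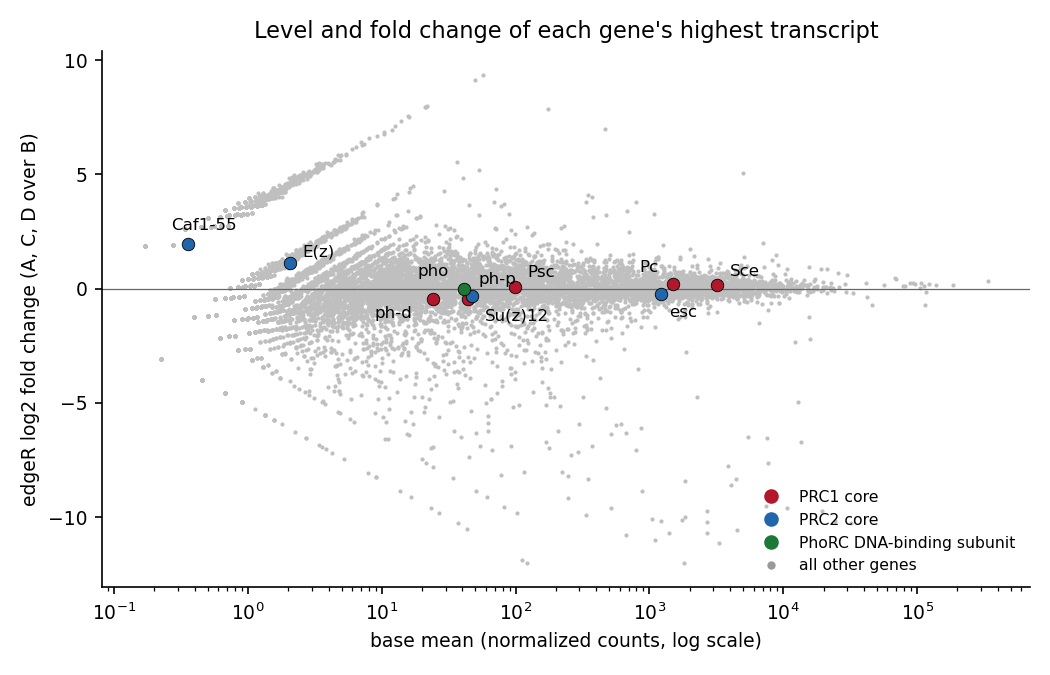
Base mean (x axis, normalized counts, log scale) against edgeR log2 fold change (y axis, side of libraries A, C and D over library B) for the highest transcript of every gene with reads. The 8 core genes whose base mean was 10 or more lie between -0.45 and 0.19; E(z) and Caf1-55 lie among the genes with few reads.

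Whole reads per library were recovered for the other PRC1 and PRC2 genes and for pho. Psc held 173 reads in A, 81 in C and 67 in D, against 106 in B. After scaling, these were 117, 89.8 and 95.5 normalized counts in A, C and D, against 95.5 in B. The mean of A, C and D was 101 ± 14.2 (SD, n = 3 libraries), so the 2 sides overlapped. EdgeR (the authors' deposited table) gave Psc a log2 fold change of 0.07 (unadjusted p = 0.916, false discovery rate 1). The log2 ratio of the mean of A, C and D to B was 0.08, and it was -0.04 without A, 0.15 without C and 0.11 without D.

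Su(z)12 held 54 reads in A, 35 in C and 42 in D, against 61 in B. These were 36.5, 38.8 and 59.9 normalized counts in A, C and D, with a mean of 45.1 ± 12.9 (SD, n = 3 libraries), against 55.0 in B. Library B lay inside the range of the other side, next to D. EdgeR (the authors' deposited table) gave a log2 fold change of -0.31 (unadjusted p = 0.665, false discovery rate 1). The log2 ratio of the sides of Su(z)12 was -0.29 with all libraries, -0.16 without A, -0.19 without C and -0.55 without D. For pho, the 43, 45 and 31 reads of A, C and D were 29.0, 49.9 and 44.2 normalized counts, with a mean of 41.0 ± 10.8 (SD, n = 3 libraries), against 45 reads or 40.5 normalized counts in B. The sides of pho overlapped and nearly coincided, and its log2 fold change in edgeR (the authors' deposited table) was 0.00434 (unadjusted p = 0.995, false discovery rate 1). The log2 ratio of its sides was 0.02 with all libraries, 0.21 without A, -0.15 without C and -0.04 without D, so its sign depended on the libraries kept.

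The polyhomeotic pair behaved differently among the libraries of one side. The leading ph-p transcript held 31 reads in A, 79 in C and 9 in D, against 62 in B, which were 20.9, 87.6 and 12.8 normalized counts in A, C and D, against 55.9 in B. The leading ph-d transcript held 15 reads in A, 48 in C and 2 in D, against 34 in B, which were 10.1, 53.2 and 2.85 normalized counts in A, C and D, against 30.6 in B. In both genes C was highest, B next, and A and D were low. The 95% Poisson intervals of C, from 69.3 to 109 normalized counts for ph-p and from 39.2 to 70.5 for ph-d, did not meet those of A or D.

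The highest of A, C and D was 6.83 times the lowest for ph-p and 18.7 times the lowest for ph-d, against 1.30 times for Psc, 1.64 times for Su(z)12 and 1.72 times for pho. A coefficient of variation among A, C and D as large as that of ph-p, 101%, was found in 3.72% of the 1989 transcripts between base means of 20 and 100, and one as large as that of ph-d, 123%, in 1.91%. The log2 fold changes of -0.45 for ph-p (unadjusted p = 0.529, false discovery rate 1) and -0.45 for ph-d (unadjusted p = 0.562, false discovery rate 1) in edgeR (the authors' deposited table) average over this spread. The log2 ratio of the mean of A, C and D to B was -0.47 for both genes. Without library A it was -0.15 for ph-p and -0.13 for ph-d, without C -1.73 for ph-p and -2.24 for ph-d, and without D -0.04 for ph-p and 0.05 for ph-d. Leaving out any of the 3 thus changed the log2 ratio of both genes, C by the most, and leaving out D turned its sign in ph-d. The genes are tandem paralogs, and how alike their own bases are was not examined. Whether reads that fit both genes were split between them was not tested, and the treatment of such reads is not given in the sources used here.

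The 2 lesser ph-p transcripts with reads had the same order of libraries at the top. NM_057523 held 3 reads in A, 21 in C and 1 in D, against 13 in B. NM_001297874 held 3 reads in A, 7 in C and 2 in D, against 5 in B. A second ph-d transcript, NM_080055, had 1 read, in B. These transcripts share the gene of the leading ones and are not separate evidence.

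**Figure D4:**
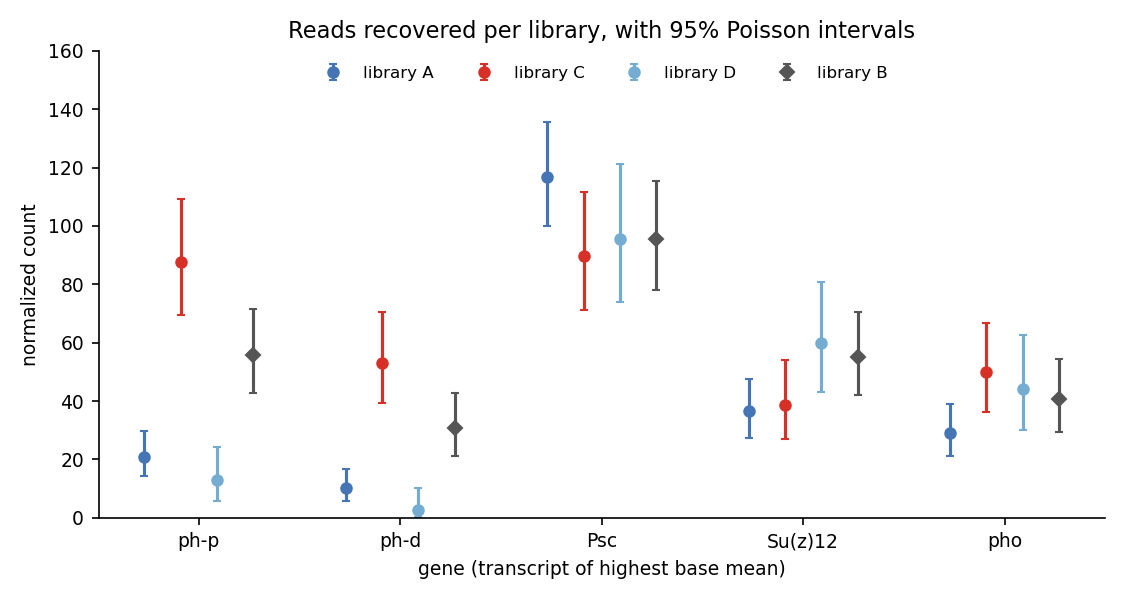
Normalized count (y axis) of the leading transcript of 5 Polycomb core genes in libraries A, C and D and in library B, with 95% Poisson intervals that cover counting error only. C exceeds A and D for ph-p and ph-d, while B lies within the range of A, C and D for all 5 genes.

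Library B lay within the range of A, C and D in 5 of these 5 genes, beside 45.7% of the 1989 transcripts at the same level. Of the transcripts with a base mean from 10 to 100 in edgeR (the authors' deposited table), 4.43% were called, and the smallest called change was 2.39 log2 units. DESeq2 (the authors' deposited table) gave 95% Wald intervals from 0.344-fold to 1.91-fold for ph-p, 0.343-fold to 2.04-fold for ph-d, 0.534-fold to 2.05-fold for Psc, 0.398-fold to 1.84-fold for Su(z)12 and 0.459-fold to 2.20-fold for pho. All 5 intervals include equal levels on the 2 sides. The DESeq2 values lie nearer to 0 than the edgeR values for ph-p, ph-d, Psc and Su(z)12, and more so for E(z) and Caf1-55, whose values are given below, so the intervals hold for the DESeq2 values only.

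The position of the own bases moved with the difference among libraries. The own bases of ph-p and ph-d lie between 5607 and 5867 bases from the 3′ end of their transcripts at the median. Those of Psc lie 162 bases, of Su(z)12 1130 bases and of pho 2231 bases from it. Libraries A and D together held 19.1% of the normalized reads of ph-p and 13.4% of those of ph-d, against 44.7% for pho, 50.7% for Su(z)12 and 53.4% for Psc. Among the 5 genes the share was thus lower at greater distance from the 3′ end.

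The same comparison was made over 603 genes, after the pattern had been seen in ph-p and ph-d. In each, 1 transcript had reads and 1 annotated transcript held bases of its own. The median share of A and D was 59.3% in 318 genes whose own bases lay under 500 bases from the 3′ end, 54.3% in 87 genes from 500 to 1000, 47.5% in 77 genes from 1000 to 2000, 42.6% in 88 genes from 2000 to 4000, and 33.3% in 33 genes from 4000 on. Library C went the other way, with a median share of 21.3% in the nearest and 40.6% in the farthest of these classes. Library B had medians of 18.9% and 25.1% in the same classes. The shares of a gene add up to its whole, so B and C together must rise where A and D together fall. The rise in C is therefore not a separate observation. The 2 ph genes were below the lower quartile of the farthest class, 23.6%. How much of the difference in ph-p and ph-d goes with position was not tested.

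**Figure D5:**
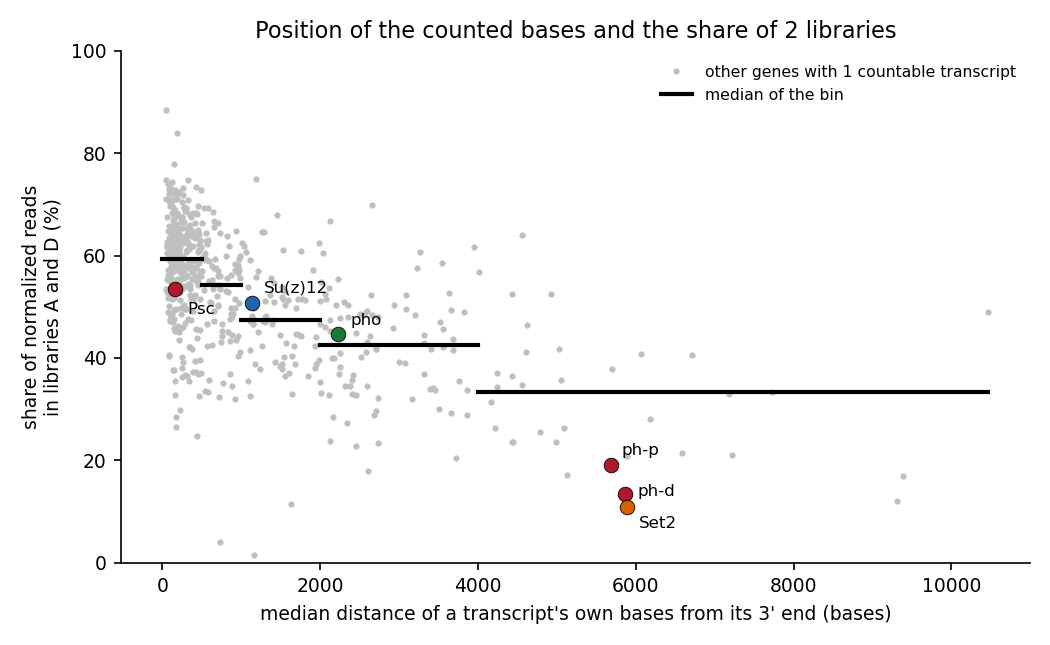
Median distance of a transcript's own bases from its 3′ end (x axis, bases) against the share of normalized reads held by libraries A and D together (y axis, percent). Black lines are medians of distance classes, from 59.3% to 33.3%; ph-p, ph-d and Set2 lie at 19.1%, 13.4% and 10.8%, and Psc, Su(z)12 and pho between 44.7% and 53.4%.

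The RNAi target shared the distant position and the low share of A and D, but not the order of B and C. The annotated Set2 transcript with bases of its own has 211 of them, 5887 bases from the 3′ end at the median. The Set2 transcript of highest base mean held 10 reads in A, 21 in C and 0 in D, against 36 in B. Libraries A and D together held 10.8% of its normalized reads. Library B held 51.9% and C 37.3%, whereas C was above B in ph-p and ph-d. The log2 fold change of Set2 was -1.65 in edgeR (the authors' deposited table), where the unadjusted p-value was 0.0388 and the false discovery rate 1. Set2 therefore did not check which libraries came from knockdown animals.

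For the remaining PRC2 genes there were almost no reads. The leading E(z) transcript held 7 reads, 0 in A, 4 in C and 2 in D, against 1 in B. Caf1-55 held 1 read, in D. In edgeR (the authors' deposited table) their log2 fold changes were 1.14 and 1.93, with unadjusted p-values of 0.533 and 0.522 and false discovery rates of 1. DESeq2 (the authors' deposited table) gave 0.19 ± 0.489 (standard error) for E(z) and 0.06 ± 0.286 for Caf1-55, with no adjusted p-value for either. No direction can be read for either gene.

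Other Polycomb factors were read from a list of 19 names, of which 18 matched a gene and 7 reached a base mean of 10. None of the 18 was called in either of the authors' deposited tables, and none had an unadjusted edgeR p-value under 0.05. Over the 6596 genes whose base mean was 10 or more, edgeR called 3.59%, and 9.17% had an unadjusted p-value under 0.05. DESeq2 called 2.26% of its 9221 transcripts with an adjusted p-value. Counts of 0 in this list are near these shares. Of the 7, 5 were positive and 2 negative, with a median log2 fold change of 0.40 in edgeR (the authors' deposited table). Of the 6596 genes, 51.6% were positive, with a median of 0.01. The highest values in edgeR (the authors' deposited table) were 0.97 for phol, the paralog of pho (unadjusted p = 0.251), and 0.76 for crm (unadjusted p = 0.393). The lowest were -0.18 for Jarid2, a PRC2 accessory subunit (unadjusted p = 0.628), and -0.12 for corto (unadjusted p = 0.841). Among the 6 genes listed at 0 in the authors' deposited table were Scm, escl, sxc and RYBP, and each of these has 2 or more transcripts.

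The Trithorax group, which holds the activators that oppose Polycomb silencing, had 12 of 20 genes at a base mean of 10 or more. None was called in either of the authors' deposited tables, 6 were positive and 6 negative, and the median was 0.02 log2 units in edgeR. One, fs(1)h, had an unadjusted edgeR p-value under 0.05. Over the 6596 genes whose base mean was 10 or more, edgeR called 3.59%, and 9.17% had such a p-value. Of those genes 51.6% were positive, so the counts in this list are near the background. The highest values in edgeR (the authors' deposited table) were 1.70 for fs(1)h, a BET bromodomain protein (unadjusted p = 0.0146, false discovery rate 0.844), and 1.25 for skd, a Mediator kinase module subunit (unadjusted p = 0.0743). In DESeq2 (the authors' deposited table) fs(1)h had 1.45 ± 0.464 (standard error) and an adjusted p-value of 0.0725. The lowest values in edgeR (the authors' deposited table) were -0.39 for kto, the partner of skd in Mediator (unadjusted p = 0.305), and -0.15 for ash2 (unadjusted p = 0.751).

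The classical targets of Polycomb silencing include the Hox genes, which set segment identity along the body axis. Of 8 Hox genes, 4 reached a base mean of 10, with a median of 0.36 log2 units in edgeR (the authors' deposited table). None of the 8 was called in either of the authors' deposited tables, and 0 had an unadjusted edgeR p-value under 0.05. Over the 6596 genes whose base mean was 10 or more, edgeR called 3.59%, and 9.17% had such a p-value. The edgeR log2 fold changes were 1.34 for abd-A (unadjusted p = 0.0905), 0.72 for Dfd (0.271), 0.00194 for lab (0.998) and -1.24 for Scr (0.153), all from the authors' deposited table. Ubx and pb were listed at 0 in the authors' deposited table, with 6 and 4 transcripts. Of 15 other targets, 8 reached a base mean of 10, 3 positive and 5 negative, with a median of -0.16 log2 units in edgeR (the authors' deposited table). None was called in either of the authors' deposited tables, and 1, hh, had an unadjusted edgeR p-value under 0.05. The counts of calls and of low p-values, here and among the Hox genes, are near the shares over the 6596 genes. Of those genes 51.6% were positive. The highest values in edgeR (the authors' deposited table) were 1.03 for the pair-rule gene eve (unadjusted p = 0.127) and 0.50 for inv (0.547). The lowest were -1.36 for the signalling gene hh (unadjusted p = 0.0226, false discovery rate 1) and -0.60 for wg (0.250).

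Markers of the tissue and of its neighbours were read in the same way. Neuronal, neuroblast and glial markers were present, with base means in the authors' deposited table of 2614 for elav, 4012 for wor and 5413 for repo. Levels within each list were uneven. A base mean of 10 was reached by 11 of 13 neuron, 10 of 10 neuroblast and 5 of 7 glial markers. The neuron markers Syn and Rdl had 0 and 2.28, and the glial markers Gli and moody had 0 and 2.92. The lowest neuroblast marker, klu, had 16.3. Neuron markers were positive in 10 of 11 genes whose base mean was 10 or more and their median log2 fold change was 0.45 in edgeR (the authors' deposited table), and 0 of 13 were called. Over the 6596 genes with such a base mean, 51.6% were positive in edgeR. Neuroblast markers had a median of 0.07 and glial markers one of 0.21 there, in the authors' deposited table. Salivary gland markers had 9 of 12 genes called negative in edgeR (the authors' deposited table), beside 3.2% of the 6596 genes, and 9 of 12 in DESeq2 (the authors' deposited table). Muscle markers were negative in 4 of 4 genes whose base mean was 10 or more, with 0 of 8 called in either of the authors' deposited tables. Fat body markers were negative in 2 of 2 such genes, with 0 of 7 called in edgeR and 1 in DESeq2 (the authors' deposited tables). For the neuron, muscle and fat body lists, counts of 0 called in edgeR are near the 3.59% called over the 6596 genes. DESeq2 called 2.26% of its 9221 transcripts with an adjusted p-value. Summed over the salivary gland list, the implied level was 168 normalized counts for the mean of A, C and D and 162895 for B. For the muscle list it was 14443 and 69182, and for the fat body list 732 and 74261, in the same order of sides. These sums rest mainly on levels and fold changes outside the range in which implied levels were checked, so their accuracy is not known. The muscle and fat body sums rest almost wholly on 2 genes each, whose edgeR p-values in the authors' deposited table were 0.197 for Mlc2, 0.287 for Act57B, 0.106 for Lsp1alpha and 0.112 for Lsp1gamma, unadjusted. The part of these lists in the Polycomb values was not tested. In such samples fewer cells of a type and less RNA per cell cannot be told apart.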

How the data were processed

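The authors' tables hold their own comparison of RNA sequencing libraries, and the submitters' processing notes name HISAT2, featureCounts, DESeq2, edgeR and the build dm3, without versions or settings. Per the file headers, the base mean is a signal, the authors' mean over libraries of counts divided by size factors. The authors' deposited log2 fold changes, log2 CPM, test scores (a standard error, a Wald statistic and an F statistic) and p-values, unadjusted and adjusted, were used as given. No values per sample were used (columns of per-sample values left out: 0), so the edgeR quasi-likelihood test named in the design for labelled counts was replaced by the authors' edgeR table, with their DESeq2 table as an alternative.

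Transcripts were matched to genes by RefSeq accession in a table of Release 6 plus ISO1 MT (33994 matched, 121 not). No coordinates are given, because that build is not dm3. Each base mean up to 100 was written as whole reads in 4 libraries, with steps found below 0.5, refined below 5, and a tolerance of 1e-08. Of 1424 transcripts above 30, 1378 had exactly 1 set of reads, as did all 9921 up to 30, and the fold change, matched within 0.2 log2 units after adding 0.3 to each level, chose the set for all but 5 of the others. In simulated base means of 1000 transcripts above 30, 100% had exactly 1 set and it held the true reads. Intervals are exact Poisson intervals (95%) and cover counting error only. Implied levels were solved from the authors' base mean and edgeR fold change. Depth is known only as size factors, whose inverse sets the value of 1 read. Own bases are exonic bases found in 1 annotated transcript, counted where Ensembl and the tables list equally many transcripts.

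The members and lists were chosen with earlier results of these data known. Named are the 10 core genes, Set2, and in each of 4 other lists the 2 highest and 2 lowest log2 fold changes among genes whose base mean was 10 or more, with any call. The marker genes and the genes listed at 0 were named after their values were seen. The list entry calypso had no match. No sequences are shown. Software was Python 3.11.15, numpy 2.4.6, pandas 2.3.3 and scipy 1.17.1.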

Additional observations from a re-analysis of the deposited data

How the results depend on the processing

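Of 52 combinations of a result and an alternative other than leaving out a library, 40 kept their direction and side of the threshold, or their value within the limits set. No core gene was called in any of 4 alternatives (the DESeq2 table, an adjusted p-value under 0.01, adjustment over transcripts at a base mean of 10 or more, adjustment over 1 transcript per gene), and the lowest adjusted p-value of a core gene was 0.999. Only the DESeq2 table could have called one. The lowest unadjusted edgeR p-value of a core gene was 0.522, for Caf1-55, and neither adjustment nor a stricter threshold can add a call to that. The 40 include these fixed outcomes and are no measure of stability. The other 12 are medians of log2 fold changes, and the cause was not tested. The core median was -0.092 in the DESeq2 table, -0.066 over all transcripts with reads, 0.12 over the 4 genes whose base mean was 50 or more, 0.038 over all 10 genes and -0.12 relative to the median of all genes, so its sign is not stable. In the DESeq2 table the medians were 0.36 for the Polycomb-associated list, 0.027 for the Trithorax group, 0.32 for the Hox genes and -0.14 for the other targets. At a base mean of at least 50 they were 0.14 for the Polycomb-associated list, -0.10 for the Trithorax group and -0.26 for the other targets.

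No paired analysis was possible because values per sample with labels were not used here. Fits with a replicate block, fits that leave out a replicate and another normalization were likewise not run. Leaving out libraries A, C and D in turn was chosen after seeing the data. Over 15 such values in 5 genes, each moved by less than the spread of A, C and D (1 SD of the log2 levels), but the sign differed from that with all 3 libraries in 4: ph-d without D, Psc without A, and pho without C and without D. That limit was wide for ph-p and ph-d, at 1.44 and 2.12 log2 units, so staying under it is no sign of stability. The log2 ratios ran from -1.73 to -0.04 for ph-p, -2.24 to 0.05 for ph-d, -0.04 to 0.15 for Psc, -0.55 to -0.16 for Su(z)12 and -0.15 to 0.21 for pho. Reads per library above a base mean of 100 were not recovered, which leaves the spread of Sce, Pc and esc within a side unknown.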

Other observations

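Among genes with 2 or more transcripts, the level in these tables was higher where more exonic bases belong to 1 transcript alone. The median of the highest base mean in the authors' deposited table was 0 in 350 genes with no such base, 0 in 1751 genes with fewer than 100 bases, 1.90 in 2231 genes with at least 100 and fewer than 300, 9.82 in 2070 genes with at least 300 and fewer than 1000, and 77.1 in 824 genes with 1000 or more. In the first of these classes 0% of the genes in the authors' deposited table reached a base mean of 10, and in the last 69.7% did. Genes with 1 transcript did not continue this order: in the authors' deposited table their median was 4.36 over 9588 genes, and 44.0% had 10 or more. In the authors' deposited table trx, osa and trr of the Trithorax group were listed at 0, with 5, 6 and 2 transcripts. Subunits of the Brahma chromatin remodelling complex with 1 transcript had high base means in the authors' deposited table: 13432 for Bap60, 9847 for Bap111 and 8736 for Snr1. Their log2 fold changes in edgeR (the authors' deposited table) were 0.14 for Bap60, -0.12 for Bap111 and 0.21 for Snr1, with unadjusted p-values of 0.690, 0.730 and 0.555.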
